A study of Mus musculus with 4 samples.

Results

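MicroRNAs (miRNAs) of the nervous system were followed in sorted interstitial cells of Cajal (ICC), the Kit-carrying pacemaker cells of the gut muscle layer. The set comprised the rows of the deposited count table named as arms of miR-9, miR-124, miR-128, miR-219 or miR-338. It held 8 rows of 982, from 4 of those families. The table writes miR-219 as miR-219a or miR-219b, so that none of its rows carried the plain name. Its 3 rows are given beside the set and were not counted in it.

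The libraries came from GFP-positive cells sorted from C57BL/6 mice aged 11 to 20 weeks, all carrying 1 KitcopGFP allele, the reporter that marks Kit-positive cells. There were 4 libraries: jejunum of ob/ob mice (Lepob/ob;KitcopGFP/+, labelled diabetic), jejunum of ob/+ mice (Lepob/+;KitcopGFP/+, labelled healthy and wild type), colon of ob/ob mice and colon of ob/+ mice. The ob allele abolishes functional leptin, and the ob/+ animals carry 1 copy of it. Each library was made from pooled material (15 each), so that every combination of tissue and genotype was a single library without replicates. Kit mRNA was not measured and no miRNA specific to ICC was fixed as a marker, so the cell type was not checked against markers of its own. The libraries held 433192 miRNA counts in jejunum ob/ob, 466329 in jejunum ob/+, 267076 in colon ob/ob and 716473 in colon ob/+. Levels are given as CPM, the counts per 1000000 miRNA counts, scaled between libraries. In the order above, 1 count equalled 2.37, 2.28, 3.15 and 1.52 CPM, and the limit that 0 counts allow, taken as 3 counts, equalled 7.12, 6.84, 9.45 and 4.55 CPM. These limits and all intervals hold counting error alone, because each came from single libraries without replicates. The reads carried no stated molecular identifiers and may repeat the same molecule, so the limits and intervals may be too narrow even for counting error.

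A miRNA hairpin yields a 5p and a 3p arm, and the arm loaded into an Argonaute protein pairs with target mRNAs mainly through its seed, bases 2 to 8. In the nervous system miR-9 acts in neural progenitors and neurons, miR-124 is the abundant neuronal miRNA that holds down non-neuronal transcripts, and miR-128 is a brain-enriched miRNA that limits neuronal excitability. miR-219 and miR-338 are known from the maturation of myelinating glia. Enteric neurons and glia lie beside ICC in the gut wall, and whether any of these arms came from them was not tested. In such bulk libraries, fewer cells of a type and less RNA per cell cannot be told apart.

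The mature sequences of 6 of the 8 members were matched in RefSeq (GRCm38.p6). They are shown with the seed in capitals, because the seed is what sets each arm's targets and the arms of 1 hairpin carry unrelated seeds.
miR-9-5p: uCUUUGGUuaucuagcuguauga
miR-9-3p: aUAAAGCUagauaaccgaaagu
miR-128-3p: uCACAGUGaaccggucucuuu
miR-128-1-5p: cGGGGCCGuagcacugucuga
miR-338-5p: aACAAUAUccuggugcugagug
miR-338-3p: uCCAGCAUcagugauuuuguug

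No 2 of these arms shared a seed, and 0 of the other entries of the table with a matched sequence (745 matched in all) carried any of these seeds at bases 2 to 8. The seed of miR-128-3p is also found 1 base further in, at bases 3 to 9, in miR-27a-3p and miR-27b-3p, shown here with these bases in capitals.
miR-27a-3p: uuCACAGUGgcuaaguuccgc
miR-27b-3p: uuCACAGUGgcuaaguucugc

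miR-27b-3p was far above miR-128-3p in every library, at 13043 and 12552 CPM in ob/ob jejunum and colon, against 9843 and 11020 CPM in ob/+ jejunum and colon.

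The hairpins lie at several places in the mouse genome (RefSeq and GENCODE M21, both GRCm38; the deposited files carry no coordinates and name the older mm9 build). miR-9 comes from Mir9-1 on chromosome 3, Mir9-2 on chromosome 13 and Mir9-3 on chromosome 7, each within a long non-coding RNA gene on the same strand (Gm3764, C130071C03Rik and Mir9-3hg). All 3 give identical arms, so the counts cannot be assigned to 1 of them. miR-128-3p comes from Mir128-1, within R3hdm1 on chromosome 1, and from Mir128-2, within Arpp21 on chromosome 9. Mir338 lies within Aatk on chromosome 11, a gene for a neuronal kinase. These 3 hairpins overlapped no annotated exon of their host gene and share its strand. Mir124a-1, Mir124a-2 and Mir124a-3 lie on chromosomes 14, 3 and 2. The hairpins of Mir9-1 and Mir338 are shown with both arms in capitals, since the arms are compared below.
Mir9-1: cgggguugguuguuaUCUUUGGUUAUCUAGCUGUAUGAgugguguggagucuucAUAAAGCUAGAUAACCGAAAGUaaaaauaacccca
Mir338: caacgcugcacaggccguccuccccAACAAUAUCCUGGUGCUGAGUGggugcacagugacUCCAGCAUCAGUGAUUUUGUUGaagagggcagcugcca

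All of the 8 members together were a small part of the miRNA counts. They took 209 counts, or 0.0482% (exact binomial 95% interval 0.0419 to 0.0552), in ob/ob jejunum and 216 counts, or 0.0463% (0.0403 to 0.0529), in ob/+ jejunum. In colon they took 157 counts, or 0.0588% (0.04995 to 0.0687), in ob/ob and 309 counts, or 0.0431% (0.0385 to 0.0482), in ob/+. Their summed level was 496 and 494 CPM in ob/ob jejunum and colon, against 493 and 469 CPM in ob/+ jejunum and colon. As shares of the raw counts, the ob/ob colon library stood above the ob/+ colon library with intervals that did not overlap, and the jejunal intervals overlapped. The CPM sums were close to each other. Per 1000000 mappable reads, of which miRNAs were a smaller share in ob/ob, the members summed to 59.5 and 62.5 in ob/ob jejunum and colon, against 104 and 113 in ob/+ jejunum and colon.

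**Figure D1:**
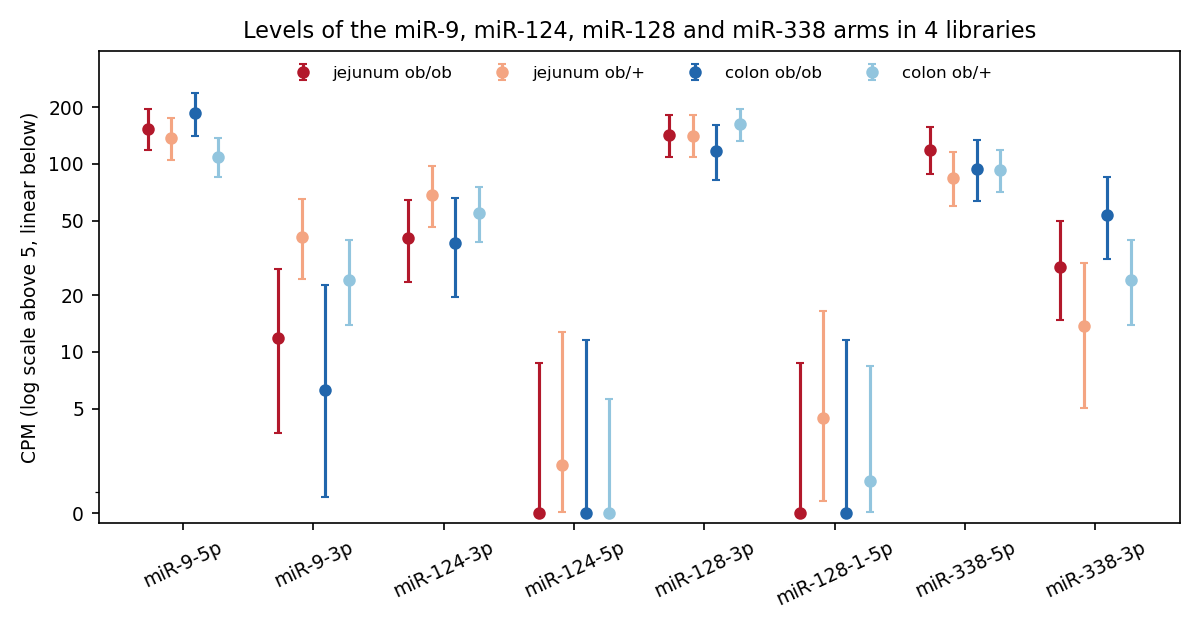
Level of each of the 8 arms in each library in CPM (log scale above 5 CPM, linear below), with exact Poisson 95% intervals as bars. miR-9-5p, miR-128-3p and miR-338-5p sit highest, miR-9-3p is lower in both ob/ob libraries and miR-338-3p is higher in them, and miR-124-5p and miR-128-1-5p lie at or near 0.

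By mean CPM over the 4 libraries the order was miR-9-5p, miR-128-3p, miR-338-5p, miR-124-3p, miR-338-3p and miR-9-3p, followed by miR-128-1-5p and miR-124-5p. miR-9-5p ranged from 109 to 186 CPM and miR-128-3p from 117 to 162 CPM. miR-338-5p ranged from 84.4 to 119 CPM, miR-124-3p from 37.8 to 68.4 CPM, miR-338-3p from 13.7 to 53.5 CPM and miR-9-3p from 6.30 to 41.1 CPM. Among neighbours in this order, the ranges of miR-338-5p and miR-124-3p did not overlap, and those of the other 4 neighbouring pairs of these 6 arms did. All mature arms shown are 21 to 23 bases long, so length hardly entered these comparisons, and differences in ligation between sequences were not corrected. miR-9-5p ranked between 111 and 147 among the miRNAs detected in a library, and miR-9-3p between 198 and 343.

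The arms best known from neurons and from myelinating glia had few counts. miR-124-3p, the neuronal miRNA, had 17 counts in ob/ob jejunum, 30 in ob/+ jejunum, 12 in ob/ob colon and 36 in ob/+ colon. miR-219a-5p, known from myelinating glia, had 0 counts in both jejunum libraries, 2 in ob/ob colon and 1 in ob/+ colon. miR-219a-1-3p was read 1 time in ob/ob jejunum and miR-219b-5p 1 time in ob/+ colon. None of the miR-219 rows exceeded 2 counts in a library, too few to compare groups.

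The genotype comparison set ob/ob against ob/+ mice. In edgeR's quasi-likelihood test over all 4 libraries, which also fitted the tissue, none of the 6 arms tested was called (Benjamini-Hochberg adjusted p of 0.05). Of all 322 entries tested, 8.07% were called higher and 10.2% lower in ob/ob, or 18.3% in all. At an unadjusted p under 0.05 there were 2 of the 6 arms, miR-9-3p and miR-338-3p, against 40.7% of all entries. DESeq2 called 0 of the 6 as well, and 62 of all 322 entries (33 higher and 29 lower in ob/ob). The median log2 change of the 6 arms was 0.01, against -0.09 over all 322. The share of mappable reads assigned to miRNAs went with genotype, at 12.3% and 10.6% in ob/ob jejunum and colon, against 22.5% and 26.3% in ob/+ jejunum and colon. Scaling to mappable reads in place of miRNA counts shifts every ob/ob over ob/+ log2 ratio, taken without the prior count, by -0.82 in jejunum and by -0.93 in colon, and the values on that scale follow each arm's own. The remaining members, miR-124-5p and miR-128-1-5p, had too few counts to be tested. Each SE given with a log2 change below is its size divided by the square root of the F statistic and is not a spread between replicates. The fit had 1 residual degree of freedom.

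miR-9-3p, the arm of miR-9 known to act on the neuronal repressor cofactor CoREST, showed the largest difference of the 6 arms between genotypes. It had 5 counts (11.9 CPM) in ob/ob jejunum and 2 counts (6.30 CPM) in ob/ob colon, against 18 counts (41.1 CPM) in ob/+ jejunum and 16 counts (24.3 CPM) in ob/+ colon. The ob/ob colon value lay under that library's limit of 9.45 CPM. The filter of 10 CPM is on the mean over the 4 libraries. On library totals, which it used, the ob/ob values were 11.5 and 7.49 CPM in jejunum and colon. Those of ob/+ were 38.6 and 22.3 CPM, and this arm passed the filter through them. Both ob/ob libraries were below both ob/+ libraries, as held for 36.6% of all entries tested. The log2 change was -1.82 ± 0.50 SE (unadjusted p = 0.0167, adjusted p = 0.0697 in edgeR; adjusted p = 0.426 in DESeq2). Over 13 alternative settings its adjusted p ranged from 0.000732 to 0.426, and 5 of them called it. Those 5 settings called between 104 and 177 of all 322 entries, against 59 in the main fit. Within jejunum the log2 ratio was -1.49 (counting interval of the ratio -3.58 to -0.31), and within colon it was -1.43 (-5.11 to 0.14). On mappable reads these ratios were -2.13 (-4.40 to -1.13) and -2.10 (-6.05 to -0.79). It was 1 of 35 entries at least 2-fold lower in ob/ob in both tissues, 10.9% of all tested.

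miR-9-5p, the arm known to act on the neuronal repressor REST, did not go the same way. It had 65 counts (154 CPM) in ob/ob jejunum and 59 counts (186 CPM) in ob/ob colon, against 60 counts (137 CPM) in ob/+ jejunum and 72 counts (109 CPM) in ob/+ colon. Both ob/ob libraries were above both ob/+ libraries, as held for 33.2% of all entries, and they did so by little in jejunum. The log2 change was 0.47 ± 0.30 (adjusted p = 0.306 in edgeR), or -0.41 when scaled to mappable reads instead of miRNA counts. Within jejunum the log2 ratio was 0.17 (-0.36 to 0.70), and within colon it was 0.74 (0.24 to 1.28). On mappable reads they were -0.63 (-1.18 to -0.12) and -0.16 (-0.69 to 0.35). On that scale both ob/ob libraries were below both ob/+ libraries, as held for 67.4% of all entries.

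The share of each arm in the counts of its hairpin is taken within a library and does not depend on how libraries are scaled. The 3p arm made up 7.14% of the miR-9 counts in ob/ob jejunum (5 of 70, exact binomial 95% interval 2.36 to 15.9) and 23.1% in ob/+ jejunum (18 of 78, 14.3 to 34.0). In colon it made up 3.28% in ob/ob (2 of 61, 0.400 to 11.3) and 18.2% in ob/+ (16 of 88, 10.8 to 27.8). Both ob/ob shares lay below both ob/+ shares, while the intervals of each pair overlapped at their ends. How many other hairpins have arm shares that part the genotypes in this way was not counted. Among the 57 hairpins with both arms tested, the log2 change of the 3p arm minus that of the 5p arm was -2.28 for miR-9, the second lowest, after miR-25 at -2.75. Both arms had to pass the abundance filter, and miR-9-3p passed it through its ob/+ values. Its place among the 57 is therefore a description and no support for a difference. The size of the difference between arms had a median of 0.50 over the 57 and reached 2 in 3 of them. These 3 all had a lower arm of at most 100 counts in all 4 libraries together, as had 35 of the 57. The difference between the arms was not tested.

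**Figure D2:**
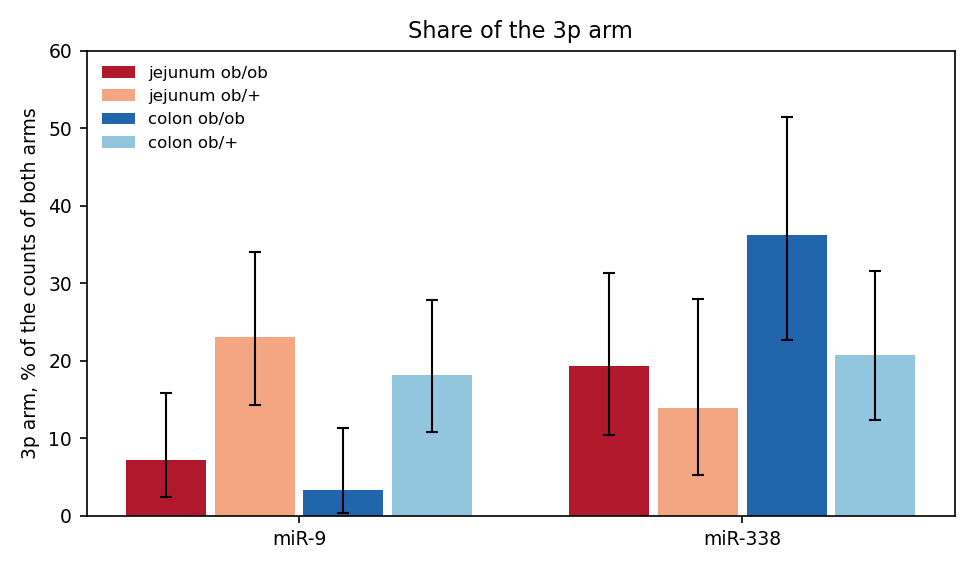
Share of the 3p arm in the counts of both arms of miR-9 and of miR-338, in percent, in each library, with exact binomial 95% intervals. For miR-9 the share is 7.14% and 3.28% in ob/ob jejunum and colon, against 23.1% and 18.2% in ob/+; for miR-338 it is 36.2% in ob/ob colon and 14.0% to 20.8% in the other libraries.

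miR-338-3p, the arm known to promote the maturation of myelinating glia, was the less abundant arm of its hairpin in every library. It had 12 counts (28.5 CPM) in ob/ob jejunum and 17 counts (53.5 CPM) in ob/ob colon, against 6 counts (13.7 CPM) in ob/+ jejunum and 16 counts (24.3 CPM) in ob/+ colon. Both ob/ob libraries were above both ob/+ libraries, as held for 33.2% of all entries tested. The log2 change was 1.10 ± 0.40 (unadjusted p = 0.0440, adjusted p = 0.113 in edgeR; adjusted p = 0.539 in DESeq2), or 0.22 when scaled to mappable reads. Within jejunum the log2 ratio was 0.86 (-0.47 to 2.76), and within colon it was 1.02 (0.07 to 2.22). On mappable reads they were 0.19 (-1.29 to 1.94) and 0.18 (-0.87 to 1.29), and the genotypes overlapped.

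miR-338-5p, the other arm, had 50 counts (119 CPM) in ob/ob jejunum and 30 counts (94.5 CPM) in ob/ob colon, against 37 counts (84.4 CPM) in ob/+ jejunum and 61 counts (92.6 CPM) in ob/+ colon. Both colon libraries were nearly level. Its log2 change was 0.26 ± 0.31 (adjusted p = 0.578 in edgeR), or -0.61 scaled to mappable reads. Within jejunum the log2 ratio was 0.47 (-0.15 to 1.14), and within colon it was 0.03 (-0.65 to 0.68). On mappable reads they were -0.31 (-0.97 to 0.32) and -0.87 (-1.59 to -0.25). On that scale both ob/ob libraries were below both ob/+ libraries, as held for 67.4% of all entries. The 3p arm made up 19.4% of the miR-338 counts in ob/ob jejunum (12 of 62, exact binomial 95% interval 10.4 to 31.4) and 14.0% in ob/+ jejunum (6 of 43, 5.30 to 27.9). In colon it made up 36.2% in ob/ob (17 of 47, 22.7 to 51.5) and 20.8% in ob/+ (16 of 77, 12.4 to 31.5). The intervals of each pair overlapped widely. The log2 change of the 3p arm minus that of the 5p arm was 0.84, the 15th largest in size of the 57 hairpins.

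**Figure D3:**
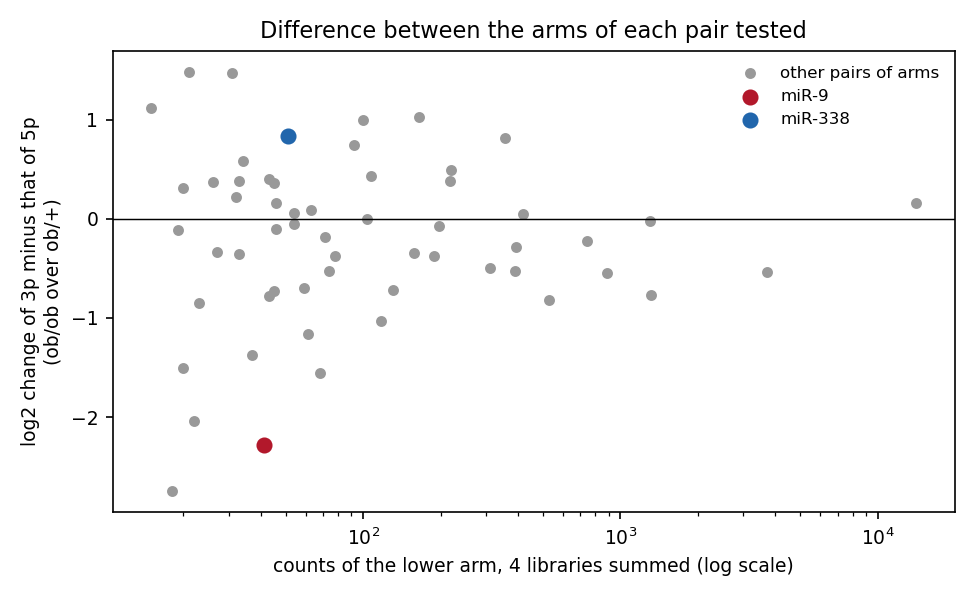
Log2 change (ob/ob over ob/+) of the 3p arm minus that of the 5p arm for each of the 57 pairs of arms tested, against the counts of the lower arm summed over the libraries (log scale). miR-9 (-2.28, with 41 counts of the lower arm) and miR-338 (0.84, with 51 counts) are marked, and differences are widest where the lower arm has few counts.

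miR-124-3p had 40.3 CPM in ob/ob jejunum and 37.8 CPM in ob/ob colon, against 68.4 CPM in ob/+ jejunum and 54.6 CPM in ob/+ colon. Both ob/ob libraries were below both ob/+ libraries, as held for 36.6% of all entries tested. The log2 change was -0.65 ± 0.35 (adjusted p = 0.230 in edgeR), and -1.52 scaled to mappable reads, where it passed (adjusted p = 0.00586). On that scale 177 of all 322 entries passed, 158 of them lower in ob/ob, and the median log2 change of all entries was -0.96. Within jejunum the log2 ratio was -0.70 (-1.71 to 0.14), and within colon it was -0.49 (-1.61 to 0.44), both intervals including 0. On mappable reads the ratios were -1.45 (-2.53 to -0.68) and -1.34 (-2.54 to -0.49), and neither interval included 0. Its 5p arm had 1 count in ob/+ jejunum and 0 in the other libraries.

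miR-128-3p had 60 counts (142 CPM) in ob/ob jejunum and 37 counts (117 CPM) in ob/ob colon, against 62 counts (141 CPM) in ob/+ jejunum and 107 counts (162 CPM) in ob/+ colon. The genotypes overlapped, the jejunum libraries being level. The log2 change was -0.23 ± 0.30 (adjusted p = 0.595 in edgeR), or -1.11 scaled to mappable reads, where it passed (adjusted p = 0.00866). So did 177 of all 322 entries on that scale, 158 of them lower in ob/ob. Within jejunum the log2 ratio was 0.01 (-0.53 to 0.54), and within colon it was -0.46 (-1.06 to 0.07). On mappable reads the ratios were -0.78 (-1.35 to -0.28) and -1.37 (-1.99 to -0.86). On that scale both ob/ob libraries were below both ob/+ libraries, as held for 67.4% of all entries. miR-128-1-5p had 0 counts in both ob/ob libraries, 2 in ob/+ jejunum and 1 in ob/+ colon, too few to compare.

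On the CPM scale, both ob/ob libraries lay to 1 side of both ob/+ libraries for 5 of the 6 arms tested, 3 above and 2 below, against 69.9% of all entries. On mappable reads it was also 5 of the 6, 0 above and 5 below, against 81.1% of all entries (13.7% above and 67.4% below). The direction of these arms between genotypes thus depended on the scaling for miR-9-5p and miR-338-5p, miR-128-3p and miR-338-3p overlapped on 1 of the scales, and miR-9-3p and miR-124-3p lay below on both scales. In the authors' deposited table, which gives ob/ob over ob/+ for 5 of the 8 members, the ratio of miR-338-3p was 1.91 in small intestine and 2.33 in colon. In the authors' deposited table miR-9-5p stood at 1.04 and 1.80, and miR-124-3p at 0.542 and 0.731. For miR-128-3p the authors' deposited table gives 0.926 and 0.759, and for miR-338-5p it gives 1.29 and 1.08.

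**Figure D4:**
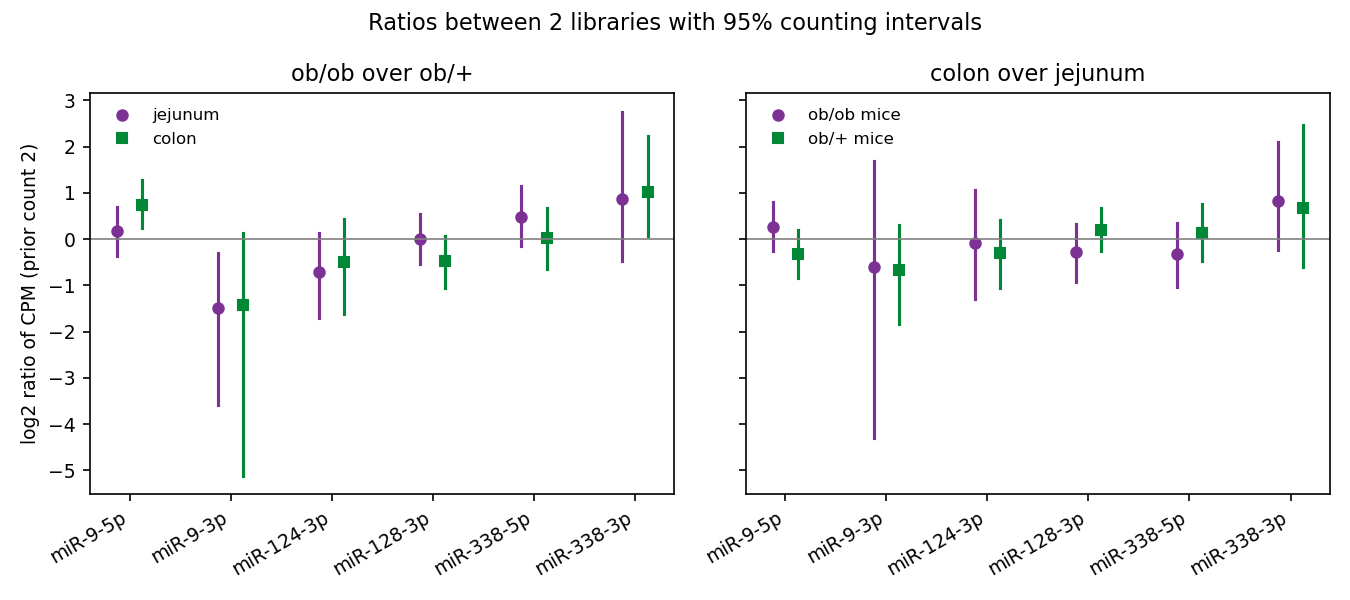
Log2 ratio of CPM (prior count of 2) for the 6 arms tested, ob/ob over ob/+ in each tissue on the left and colon over jejunum in each genotype on the right, with bars for the 95% counting interval of the unadjusted ratio. Intervals exclude 0 for miR-9-3p in jejunum and for miR-9-5p and miR-338-3p in colon on the left, and for none of the arms on the right.

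The tissue comparison asked whether the colon differed from the jejunum. edgeR's test with genotype as a term called 0 of the 6 arms and 0% of the 322 entries (13 entries, or 4.04%, at an unadjusted p under 0.05, none of them a member; 0 called by DESeq2, with 6 at an unadjusted p under 0.05). miR-338-3p had a log2 change of 0.87 ± 0.41 (unadjusted p = 0.0899, adjusted p = 0.964 in edgeR), the largest of the 6 in this fit, which was 0.12 without the ob/ob colon library. Its colon over jejunum log2 ratio was 0.82 in ob/ob mice (-0.24 to 2.11) and 0.67 in ob/+ mice (-0.60 to 2.47), higher in colon in each genotype. miR-9-3p had a log2 change of -0.78 ± 0.46 (adjusted p = 0.964), with ratios of -0.61 in ob/ob (-4.31 to 1.70) and -0.67 in ob/+ (-1.83 to 0.30), and its change was 0.36 when ob/+ jejunum was left out and -2.02 when ob/+ colon was. For the other 4 arms the log2 change lay between -0.23 (miR-124-3p) and -0.03 (miR-9-5p and miR-128-3p). The counting intervals of all colon over jejunum ratios included 0.

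A list of 17 other miRNAs known from neurons had 12 entries tested, of which 2 rose in ob/ob, 1 fell and 9 did not pass in edgeR's test, with a median log2 change of 0.42 against -0.09 over all entries. Over all entries 8.07% were called higher and 10.2% lower. Its summed level was 2916 and 3036 CPM in ob/ob jejunum and colon, against 2450.5 and 2123 CPM in ob/+ jejunum and colon, with miR-7a-5p and miR-7b-5p, also known from endocrine cells, the most abundant. The median and the sums were taken on the CPM scale alone. Scaling to mappable reads shifts ob/ob over ob/+ log2 ratios by -0.82 in jejunum and -0.93 in colon, so the direction of the sums depends on the scaling. miR-129-1-3p rose, with 80.7 and 75.6 CPM in ob/ob jejunum and colon, against 25.1 and 21.2 CPM in ob/+ jejunum and colon (log2 change 1.75 ± 0.36, adjusted p = 0.0357 in edgeR). The other miR-129 arms listed, miR-129-5p and miR-129-2-3p, were more abundant in every library and were not called. Their log2 changes were 0.33 ± 0.32 and 0.51 ± 0.28 (adjusted p = 0.490 and 0.248 in edgeR). miR-218-5p, known from motor neurons, rose by 1.48 ± 0.35 (adjusted p = 0.0499), and miR-132-3p, induced by neuronal activity, had a log2 change of -1.30 ± 0.30 (adjusted p = 0.0480). These calls are close to the threshold: in DESeq2 the adjusted p was 0.119, 0.200 and 0.132. In fits that left out 1 library and had no tissue term, none of the 3 was called without ob/ob jejunum (log2 change 1.70, 1.42 and -1.54; adjusted p = 0.139, 0.163 and 0.143) or without ob/ob colon (1.93, 1.68 and -0.94; adjusted p = 0.0936, 0.109 and 0.191). All 3 were called without ob/+ jejunum (adjusted p = 0.0147, 0.0212 and 0.0431) and without ob/+ colon (adjusted p = 0.0296, 0.0454 and 0.0240). Each of them was also lost with no filter on low counts (adjusted p = 0.125, 0.151 and 0.162), and miR-132-3p with library totals (0.0645). Scaled to mappable reads, the log2 change of miR-129-1-3p was 0.87 and that of miR-218-5p 0.61, neither passing (adjusted p = 0.136 and 0.303), while miR-132-3p passed (-2.17, adjusted p = 9.42e-07). Of the 17 listed, 2 had at most 3 counts in any library.

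The miRNAs with the profile closest to miR-9-5p over the 4 libraries, by the root mean square difference of centred log2 CPM, were miR-1249-3p (0.05), miR-129-2-3p (0.09) and miR-330-3p (0.14). Closest to miR-124-3p were miR-25-3p, miR-409-5p and miR-21a-5p (0.07 to 0.10). Closest to miR-128-3p were miR-378c, miR-191-5p and miR-378a-5p (0.04 to 0.05). Closest to miR-338-5p were miR-378d, miR-30c-2-3p and miR-378a-3p (0.06 to 0.09).

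Some markers of other gut cells differed between the same libraries. Of 3 fibroblast arms all 3 fell in edgeR's test, with sums of 448 and 479 CPM in ob/ob jejunum and colon, against 2585 and 2659 CPM in ob/+. Of 6 epithelial arms 4 fell, with sums of 356 and 283 CPM in ob/ob jejunum and colon, against 2063 and 882 CPM in ob/+. Of all entries tested 8.07% were called higher and 10.2% lower. None of the 4 muscle or 4 leukocyte arms tested passed. Muscle arms summed to 335846 and 235715 CPM in ob/ob jejunum and colon, against 245049 and 205780.2 CPM in ob/+, and leukocyte arms to 1283 and 967 CPM in ob/ob, against 700.5 and 636 CPM in ob/+. All sums of markers are on the CPM scale alone. The erythroid marker miR-451a was not tested. It had 0 counts in both ob/ob libraries and 6 in each ob/+ library (13.7 CPM in jejunum and 9.11 CPM in colon). The colon value lies under the 9.45 CPM that 0 counts allow in ob/ob colon, so the colon libraries cannot be told apart. miR-9-3p and miR-124-3p were lower in the same ob/ob libraries as the fibroblast and epithelial markers. On the CPM scale both ob/ob libraries lay below both ob/+ libraries for 36.6% of all entries tested. On that scale 3 of the 6 arms lay above. The part of the fibroblast and epithelial cells in the result was not tested.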

How the data were processed

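Small RNA of pooled, sorted cells was sequenced in 4 libraries. Per the file headers, adapters were trimmed, reads shorter than 15 nt were dropped, and mappable reads were assigned to miRNAs of miRBase 20 (genome mm9). How reads were aligned, counted and scaled is not given in the sources used here. Raw values by the authors are estimated counts, whole for all 32 values of the members. The authors' normalized values are a signal, the raw counts times 1 factor per library. The deposited ratios divide ob/ob by ob/+ values. The deposited statistics give read numbers, other values of which only mappable reads were used. "Small intestine" columns were taken as the jejunal libraries.

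Counts were rounded, and TMM factors (0.973, 0.940, 1.19 and 0.920 for jejunum ob/ob, jejunum ob/+, colon ob/ob and colon ob/+) came from all entries. Entries averaging at least 10 CPM (322) were tested with edgeR 4.0.16 in R 4.3.3, tissue and genotype as terms, with Benjamini-Hochberg adjustment. With 1 library per group, p-values treat the other tissue or genotype as the repeat. There was 1 residual degree of freedom (prior 3.8) and a biological coefficient of variation of 17.3%. DESeq2 1.42.0 was an alternative. Ratios of 2 libraries used a prior count of 2, with an exact conditional binomial 95% interval of the counts and no test. The fits were tested on simulated counts. The members and the lists (other neural, muscle, epithelium, leukocyte, fibroblast, endothelium, erythroid) were chosen with earlier results of these data known. The endothelial list was not analysed here. The rule named all members, the 3 entries closest in profile to each family's most abundant arm, up to 6 of the neural list, the miR-3065 arms (not analysed here) and entries sharing a seed. miR-25, miR-27 and miR-451a were named after their values were seen.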

Additional observations from a re-analysis of the deposited data

Results flagged for a closer look

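miR-128-3p had genotype ratios of opposite sign in the 2 tissues, with a log2 ratio of ob/ob over ob/+ of 0.0087 in jejunum and -0.46 in colon. The opposite sign did not hold with the authors' factors (-0.11 in jejunum and -0.39 in colon) or with mappable reads (-0.78 and -1.37), and the authors' deposited table has both ratios below 1 (0.926 and 0.759). Both counting intervals include 0, each tissue had 1 pair of libraries, and the difference between tissues was not tested.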

How the results depend on the processing

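The count of entries called by genotype, 59 (26 higher, 33 lower), held none of the members and changed with the fit. It was 115 with median-of-ratios factors, 121 with the authors' factors, 177 scaled to mappable reads (19 higher, 158 lower), 2 without the abundance filter, 104 with unrounded counts and 121 with TMM factors from the tested entries only, an alternative chosen after seeing the data (76 higher, 45 lower). With library totals it was 72 (44 higher, 28 lower). The prior degrees of freedom were infinite with unrounded counts and with TMM from the tested entries, against 3.8. Leaving out each library in turn, with no term for the other factor, gave between 2 and 89 calls: 2 when either ob/ob library was left out, 89 when ob/+ jejunum was left out and 72 when ob/+ colon was. The count called by tissue, 0, became 2 with median-of-ratios factors, with the authors' factors and with TMM from the tested entries only. miR-9-3p passed by genotype with median-of-ratios factors (log2 change -1.79, adjusted p = 0.0249), the authors' factors (-1.87, 0.0199), mappable reads (-2.66, 0.000732), unrounded counts (-1.82, 0.0352) and TMM from the tested entries (-1.64, 0.0375). With that last scaling miR-338-3p also passed (1.30, 0.0404). miR-9-3p stayed below 0 and miR-338-3p above 0 in all 13 alternatives, from -2.66 to -1.21 and from 0.22 to 1.51. By genotype the sign turned with mappable reads for miR-9-5p (-0.41) and miR-338-5p (-0.61); that scaling moves the median of all entries to -0.96 from -0.09. miR-128-3p ranged from -0.39 to 0.031 without 1 library. By tissue, small values turned: miR-128-3p (0.090 with library totals, 0.11 with mappable reads), miR-338-5p (0.033 and 0.044) and miR-9-5p (0.10 and 0.10, and 0.015 with no term for genotype). Without 1 library the tissue values ranged from -0.55 to 0.14 for miR-124-3p, -0.28 to 0.13 for miR-128-3p, -0.40 to 0.15 for miR-338-5p, -2.02 to 0.36 for miR-9-3p, 0.12 to 1.46 for miR-338-3p and -0.48 to 0.35 for miR-9-5p. The cause of these changes was not tested. No paired analysis was possible because each combination of tissue and genotype had a single library. The fit with both terms already compares genotypes within a tissue. Whether jejunum and colon of 1 genotype came from the same mice was not known here, and if so the tissues are not independent repeats. Depth limits the members: each arm tested had between 2 and 107 counts in a library.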
